A study of Mus musculus with 38 samples.

Results

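The striatal transcriptome of XX females was compared with that of XY males among mice whose sample code ends in the letter b alone. The comparison holds 13 of the 38 animals of the series, 9 XX females and 4 XY males, chosen by the letter in the code and by the labelled group and not by any measured value. What a letter means is not stated in the labels, and here it is the same on both sides. All 13 were MF1 mice aged 152 days, and total RNA of the striatum of each was hybridised to an Illumina bead array with 25697 probes. The codes of the XY males add Sry, the gene that starts testis formation, to XY, without stating which form of the gene or of the Y chromosome the animals carry. The XX females have no such addition and are labelled female. Karyotype, Sry and gonads therefore differ together and cannot be told apart in this comparison. Of the XX females, replicates 1 to 5 are in labelled batch 1 and replicates 6 to 9 in labelled batch 2, while the 4 XY males, replicates 9 to 12, are all in labelled batch 2. The calls are therefore also given for batch 2 alone, 4 animals against 4, as are gene list medians that changed sign or moved by over 1.5 times there.

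In mammals with more than 1 X chromosome, the noncoding RNA Xist coats 1 X and silences most of its genes. Some genes escape this silencing and are read from both copies, several of them with a partner on the Y chromosome, such as Eif2s3x with Eif2s3y or Kdm6a with Uty. The striatum is a forebrain centre of movement and reward whose main cells are projection neurons with the dopamine receptors Drd1 or Drd2.

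Between 11086 and 12329 probes were detected on the XX female arrays (detection p below 0.01) and between 11535 and 12392 on the XY male arrays. The upper decile of the raw signal lay between 1405 and 2209 in XX females and between 1444 and 1902 in XY males. After normalization XX female 7 stood apart from the other 12 animals. It lay at -71.3 on component 1, which held 45.8% of the variance, while the next animal lay at -22.9. Its median correlation with the other arrays was 0.919. Results are given with and without it where it changes a call, and list medians where they changed sign or moved by over 1.5 times. Levels below are normalized log2 signals, differences are XX female minus XY male on the same scale, and a feature is a named gene or an unnamed probe. A feature was called where limma's adjusted p was below 0.05.

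**Figure D1:**
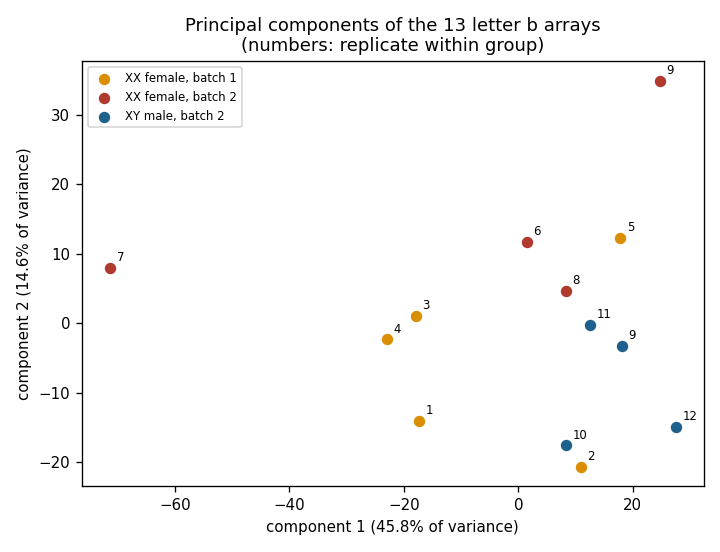
Positions of the 13 arrays on component 1 (horizontal) and component 2 (vertical) of the normalized values, with the replicate number beside each point. XX female 7 lies alone at -71.3 on component 1, and the 4 XY males lie between 8.37 and 27.5 there, on the side of 5 of the XX females.

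The labels were checked on Xist and on the Y-linked gene tested. Xist passed the detection threshold in 9 of 9 XX females and 0 of 4 XY males. Of 10 listed Y-linked genes only Uty, a histone demethylase relative, was among the features tested. Its probe did not separate the groups, at 6.00 ± 0.40 (SD, n = 9) in XX females and 5.95 ± 0.29 (SD, n = 4) in XY males, and was detected in 5 of 9 and 3 of 4 animals. By label the XX females have no Y chromosome, so a probe with signal in 5 of 9 of them cannot check the labels. As for the tissue, the striatal receptor genes Drd1 and Drd2 were at 11.7 ± 0.59 and 10.9 ± 0.76 in XX females (SD, n = 9) and at 11.6 ± 0.29 and 11.2 ± 0.32 in XY males (SD, n = 4).

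Across 9533 features, 5 differed between XX females and XY males, or 0.0524% (limma, Benjamini-Hochberg adjusted p below 0.05). Higher in XX females were 2 features, Xist and Eif2s3x (0.021%). Lower were 3 features, all unnamed probes (0.0315%). At an unadjusted p below 0.05 there were 570 higher (5.98%) and 672 lower (7.05%), together 13% of all features. None of the named calls was autosomal: 0 of the 8098 autosomal genes tested was called in limma (1060 at an unadjusted p below 0.05). This count depended on how the arrays were weighted. With limma's array weights, 53 features were called, of which 37 were autosomal genes, among them Noct (adjusted p = 0.026), Agrn (0.0127) and Creb1 (0.026). XX female 7 counted least under these weights (0.169), followed by XX female 9 (0.368). XY males 9 to 12 had weights of 1.82, 2.16, 1.58 and 1.26, and the highest XX female had 1.68. Without XX female 7 there were 6 calls (0.0629%), the sixth being the unnamed probe ILMN_3123341.

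The promoters of Xist and Eif2s3x are shown because these were the only named genes called with all 13 animals. Each runs from 250 bases before to 50 bases after the gene start in RefSeq's annotation of the mouse assembly GRCm38.p6, on the minus strand, at chrX:103483184-103483483 for Xist and chrX:94212602-94212901 for Eif2s3x. Capitals mark matches, on either strand, to CCATNTT, the core of the site of the zinc finger protein YY1, which is known to bind the Xist locus.
Xist: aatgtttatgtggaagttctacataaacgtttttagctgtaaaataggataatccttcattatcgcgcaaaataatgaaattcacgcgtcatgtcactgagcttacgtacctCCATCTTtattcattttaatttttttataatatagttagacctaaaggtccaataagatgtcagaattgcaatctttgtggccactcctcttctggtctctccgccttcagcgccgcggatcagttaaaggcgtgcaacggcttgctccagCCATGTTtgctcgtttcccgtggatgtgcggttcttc
Eif2s3x: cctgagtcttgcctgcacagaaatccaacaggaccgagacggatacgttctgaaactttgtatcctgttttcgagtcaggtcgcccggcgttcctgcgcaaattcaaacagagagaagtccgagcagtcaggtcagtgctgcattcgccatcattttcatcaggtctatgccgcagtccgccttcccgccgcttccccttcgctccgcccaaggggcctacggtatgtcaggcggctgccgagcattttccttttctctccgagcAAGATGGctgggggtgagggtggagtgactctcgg
The Xist window held 2 matches and the Eif2s3x window 1. The same letters occurred in 16.1% of 32851 mouse promoters of this length. The windows held 15 and 21 CpG pairs, against a median of 7 over all promoters. The motif was chosen after the 2 genes were known, and a match is a description of the letters only.

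Xist lay between 6.69 and 9.60 in XX females, with a median of 8.62. It was at 4.95, 5.13, 4.83 and 4.57 in XY males 9 to 12, none of which passed the detection threshold. Every XX female was above every XY male, and XX female 7 was the lowest of the XX females. The means were 8.45 ± 0.88 (SD, n = 9) and 4.87 ± 0.24 (SD, n = 4), and the fitted difference was 3.58 (SE 0.41, limma adjusted p = 0.00116). Since the XY signal was not above background, Xist is given as at least 6.17-fold higher in XX females. This bound sets the mean of the XX females against the mean, over the XY arrays, of the lowest signal of a detected probe or of the probe itself, whichever was higher. In batch 2 alone Xist differed by 3.18, at least 4.67-fold, with a limma adjusted p of 0.107, and without XX female 7 the batch 2 difference was 3.63 with an adjusted p of 0.00397.

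Eif2s3x encodes the X-linked copy of the gamma subunit of the translation initiation factor eIF2. Its levels in XX females 1 to 9 were 10.97, 10.68, 10.59, 10.76, 10.82, 10.67, 10.72, 10.58 and 10.68. In XY males 9 to 12 they were 10.10, 10.02, 10.23 and 9.68. The groups did not overlap, and XY male 12 was the lowest animal. The means were 10.72 ± 0.12 (SD, n = 9) and 10.01 ± 0.24 (SD, n = 4), a difference of 0.71 (SE 0.12) or 1.64-fold, with a limma adjusted p of 0.0416. A two-sided exact permutation test of this single gene gave p = 0.0014, the smallest that 9 animals against 4 allow. In batch 2 alone the difference was 0.65 (limma adjusted p = 0.352), and the exact permutation p was 0.0286, the smallest that 4 against 4 allow. The gene was picked from these same values with its groups already apart, so neither permutation p is separate support for the call. Among all features, 0.451% had every XX female above every XY male. The call was close to the threshold. It held when XX female 7 (limma adjusted p = 0.0422) or XY male 11 (0.0487) was left out, and it was lost when any other animal of the 13 was left out, at adjusted p up to 0.268.

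**Figure D2:**
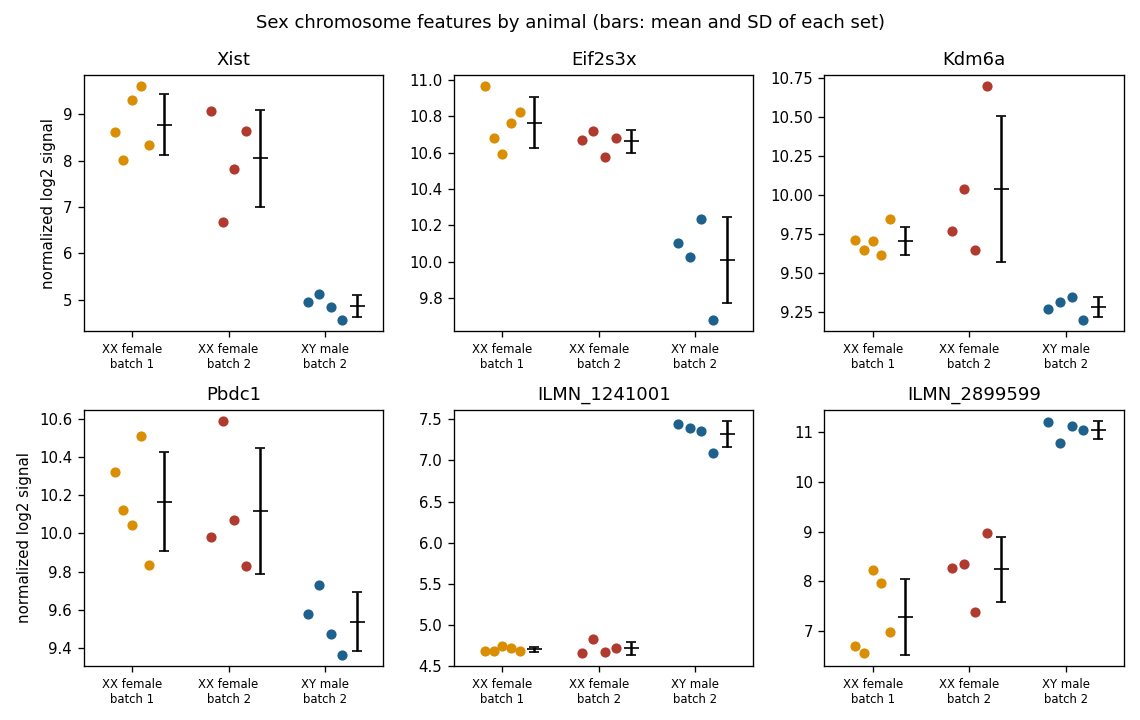
Normalized log2 signal (vertical axes, each with its own range) of 6 features in XX females of batch 1, XX females of batch 2 and XY males of batch 2. Each point is an animal, and bars give mean and SD of each set. In all 6 panels the XX females and XY males do not overlap.

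The 3 features lower in XX females were probes without a gene name in the platform annotation. ILMN_1241001 lay between 4.66 and 4.83 in XX females, with a median of 4.69, and at 7.44, 7.39, 7.35 and 7.09 in XY males. It was the most even of the called features within groups, with SDs of 0.05 and 0.16 (n = 9 and 4), and the XX females were all at background. Its difference of -2.61 (SE 0.09, limma adjusted p = 4.97e-10) corresponds to a signal at least 2.62-fold lower in XX females. It was also called in batch 2 alone, with a difference of -2.60, and in each fit that left 1 animal out.

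ILMN_2899599 was detected in every animal. It lay between 6.55 and 8.98 in XX females, with a median of 7.97, and at 11.20, 10.80, 11.13 and 11.05 in XY males. The XX females thus carried a signal for this probe that varied between animals, all of it below the XY males. The difference was -3.34 (SE 0.39, limma adjusted p = 0.00116). ILMN_2993661 lay between 4.65 and 5.12 in XX females, with a median of 4.74, and at 6.23, 6.59, 6.83 and 6.03 in XY males. For all 3 probes every XX female was below every XY male, as for 1.12% of all features. The difference was -1.61 (SE 0.14, limma adjusted p = 8.08e-05), a signal at least 1.40-fold lower in XX females.

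Across all 37 animals with a signal column, normalized together, 2 of these probes followed the labelled karyotype. ILMN_1241001 lay between 4.52 and 4.79 in the 8 XX males and between 6.94 and 8.24 in the 9 XXY males. ILMN_2899599 lay between 4.57 and 6.65 in XX males and between 9.97 and 11.5 in XXY males. Both were therefore low in both kinds of XX animal and high in both kinds of animal with a Y chromosome. ILMN_2993661 did not divide in this way, at 5.04 to 6.30 in XX males and 5.05 to 6.19 in XXY males, above the 4.56 to 4.91 of XX females. ILMN_3123341, the probe nearest to the threshold (difference 1.78, limma adjusted p = 0.0713), lay between 4.61 and 5.43 in XY males. It was at 5.11 to 7.21 in XX females, 6.18 to 7.26 in XX males and 5.55 to 7.65 in XXY males. XX female 7, the lowest of the XX females at 5.11, thus lay within the range of the 11 XY males of the series. The letter b XY males 9 to 12 lay below it in this joint normalization, at 4.76, 4.79, 4.92 and 4.79.

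Genes listed as escaping X inactivation, with Xist counted among them, lay mostly above zero in XX females. Of 14 listed genes 7 were tested, 6 had a positive difference, 2 were called (Xist and Eif2s3x), and the median difference was 0.57 (0.58 in batch 2) against -0.02 over all features. In 4 of the 7 every XX female was above every XY male, where 0.451% of all features showed this. Besides Xist and Eif2s3x these were Kdm6a and Pbdc1. Xist raises all of these figures, although karyotype sets it in advance and it was used above to check the labels. Apart from Xist, the differences ran from 0.71 for Eif2s3x to -0.63 for Bgn.

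Kdm6a, a histone H3 lysine demethylase, lay between 9.62 and 10.7 in XX females, with a median of 9.71. In XY males it was at 9.27, 9.31, 9.35 and 9.20. The groups did not overlap, and XX female 9 was well above the others. The difference was 0.57 (SE 0.17, unadjusted p = 0.00507, limma adjusted p = 0.373), and a second probe of the gene gave 0.68 (SE 0.20). Pbdc1 lay between 9.83 and 10.6 in XX females, with a median of 10.07, and at 9.58, 9.73, 9.48 and 9.37 in XY males. Its difference was 0.61 (SE 0.15, limma adjusted p = 0.373). Neither gene was called, and in batch 2 alone the differences were 0.76 for Kdm6a and 0.58 for Pbdc1.

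The other tested genes of the list overlapped between the groups. Ddx3x, an RNA helicase with the Y-linked partner Ddx3y, differed by 0.26 (SE 0.32). Car5b, a mitochondrial carbonic anhydrase, differed by 0.26 (SE 0.17) and was detected in 4 of 9 XX females and 1 of 4 XY males. Bgn, the small matrix proteoglycan biglycan, was the exception in sign at -0.63 (SE 0.28, limma adjusted p = 0.38). The pseudoautosomal gene Erdr1 differed by 0.09 (SE 0.49), and by -0.06 in batch 2, and ranged from 7.69 to 10.8 among XX females, far wider than the 8.98 to 9.54 of XY males.

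Over the X chromosome, 285 genes were tested and 163 (57.2%) had a positive difference, where 47.3% of all features did. Their median difference was 0.06, against -0.03 over autosomal genes. At an unadjusted p below 0.05 there were 28 higher and 15 lower X-linked genes, 15.1% of the 285 against 13% of all features. X-linked genes with neuronal roles did not lean to one side: 9 of 20 tested had a positive difference, 0 were called in limma (0 higher and 1 lower at an unadjusted p below 0.05), and the median was -0.09 (-0.04 in batch 2 and -0.01 without XX female 7). The synaptic vesicle protein synaptophysin, Syp, was at 13.7 ± 0.24 (SD, n = 9) in XX females and 14.1 ± 0.06 (SD, n = 4) in XY males, a difference of -0.34 (limma adjusted p = 0.373).

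In batch 2 alone, 4 features were called (0.042%). Lower in XX females were the 3 unnamed probes again, and higher was the autosomal gene Noct (0.0105%). At an unadjusted p below 0.05 there were 1129 features (11.8%). Leaving out XX female 7 gave 6 calls (0.0629%), with Xist and ILMN_3123341 added. Leaving out XX female 6, XY male 9, XY male 10 or XY male 11 left 1 call each, and leaving out XX female 8 or XY male 12 left 2. Between XX females of batch 2 and batch 1, 0 features were called in limma, with 407 (4.27%) at an unadjusted p below 0.05.

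Noct encodes nocturnin, a phosphatase of nicotinamide cofactors whose RNA follows a daily rhythm in many mouse tissues. The gene lies on chromosome 3. Its kept probe was at 7.32, 9.89, 10.16, 9.99, 10.47, 9.91, 9.91, 9.99 and 11.12 in XX females 1 to 9. In XY males it was at 6.94, 6.81, 7.64 and 7.42. XX female 1 lay among the XY males, and the other 8 XX females were above all of them with a gap of 2.25 log2 units. In batch 2 the difference was 3.03 (SE 0.31, limma adjusted p = 0.0151). With all 13 animals it was 2.66 (SE 0.48, limma adjusted p = 0.0943), and without XX female 1 the adjusted p was 4.06e-05. The batch 2 call held without XX female 7 or XX female 9 and was lost without any of the other 6 animals, at adjusted p up to 0.0764.

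The second Noct probe did not show these levels. It was at 7.07 ± 0.36 (SD, n = 9) in XX females and 6.84 ± 0.08 (SD, n = 4) in XY males. The difference of 0.23 (SE 0.18) had an unadjusted p of 0.218 in limma. Over the 37 animals normalized together, no value of the first probe lay between 7.68 and 8.98. The animals above this gap were 8 of 9 XX females, 3 of 9 XXY males, 3 of 8 XX males and 1 of 11 XY males. The higher level thus occurred in all 4 groups. Among 17 tested genes of the daily clock, a list added after Noct was seen, Noct was the only call in batch 2, 5 had a positive difference over all 13 animals, and the median was -0.08 (-0.02 without XX female 7). Nr1d2, a clock repressor, differed by 0.60 (SE 0.20, limma adjusted p = 0.373).

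**Figure D3:**
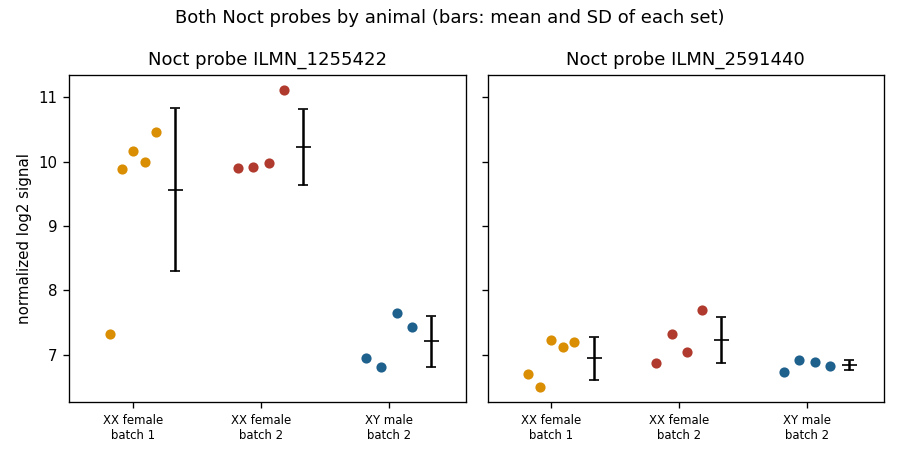
Normalized log2 signal (shared vertical axis) of both Noct probes in XX females of batch 1, XX females of batch 2 and XY males of batch 2, with each point an animal and bars giving mean and SD. The left probe is at 9.89 or above in 8 of 9 XX females, and the right probe lies between 6.49 and 7.69 in all animals.

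Lists of striatal neuron types and dopamine metabolism gave 0 calls in limma, with 1 gene higher and 1 lower at an unadjusted p below 0.05. Of 6 tested genes of direct-pathway neurons 4 had a positive difference with a median of 0.08 (0.17 in batch 2). Drd1 differed by 0.10 (SE 0.29), and in batch 2 alone by 0.53. Of 3 indirect-pathway genes 1 was positive with a median of -0.22 (0.11 with 2 of 3 positive in batch 2, and -0.15 without XX female 7), Drd2 being at -0.33 (SE 0.36). In batch 2 without XX female 7, 3 of 3 were positive with a median of 0.40, where 49.7% of all features were positive. Genes shared by the projection neurons were positive in 7 of 19, with a median of -0.15 (-0.05 in batch 2 and -0.04 without XX female 7). In batch 2 without XX female 7, 18 of the 19 were positive with a median of 0.22. Bcl11b, a transcription factor of these neurons, was at 11.8 ± 1.03 (SD, n = 9) in XX females and 12.5 ± 0.27 (SD, n = 4) in XY males. Cholinergic interneuron genes were positive in 1 of 7, with a median of -0.35 (-0.57 in batch 2 and -0.17 without XX female 7). Genes of GABA interneurons were positive in 3 of 7, with a median of -0.07 (0.07 in batch 2). Dopamine metabolism genes were positive in 5 of 6, with a median of 0.18.

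Receptor genes lay below zero more often than above, again with 0 calls in limma. The 6 tested glutamate receptor genes had a negative difference, as did 52.7% of all features, with a median of -0.26, and Gria3, an X-linked AMPA receptor subunit, was at -0.41 (SE 0.26). In batch 2 alone 1 of the 6 was positive, where 48.4% of all features were, and the median was -0.11. In batch 2 without XX female 7 it was 3 of the 6. GABA receptor genes were positive in 2 of 6, with a median of -0.38 (-0.22 without XX female 7), and 1 was lower at an unadjusted p below 0.05. Gabrb1 differed by -0.71 (SE 0.44), and by -0.42 without XX female 7, in which it was lowest at 7.04.

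Genes of hormone response were measured in part. The oestrogen receptor gene Esr1 did not pass the detection filter. Of 7 tested sex steroid genes 3 were positive, with a median of -0.22 (-0.26 in batch 2 and -0.15 without XX female 7) and 0 calls in limma. At an unadjusted p below 0.05, 3 of the 7 were lower, as were 7.05% of all features. Gper1, a membrane oestrogen receptor, differed by -0.60 (SE 0.23) and Ncoa1, a steroid receptor coactivator, by -0.61 (SE 0.25), each with an adjusted p of 0.373. Glucocorticoid-responsive genes were positive in 14 of 17, with a median of 0.33 that was 0.11 in batch 2 alone, and 0 were called in limma (1 higher at an unadjusted p below 0.05). Between XX females of batch 2 and batch 1, 4 of the 17 were positive, against 49.1% of all features, with a median of -0.23. Nfkbia, an inhibitor of NF-kappaB, differed by 0.64 (SE 0.27). Immediate early genes, induced within minutes of neuronal activity, were positive in 10 of 14, with a median of 0.08 (0.18 in batch 2 and 0.20 without XX female 7). Calls in limma were 0, with 2 higher at an unadjusted p below 0.05, as were 5.98% of all features. In batch 2 without XX female 7, 13 of 14 were positive with a median of 0.41, where 49.7% of all features were positive. Fos lay between 7.03 and 9.31 in XX females, with a median of 7.89, and between 6.75 and 7.10 in XY males, a difference of 1.00 (SE 0.33, limma adjusted p = 0.373). XX female 5 fell in the range of the XY males for Fos and the other XX females were above it.

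Ribosome and respiratory chain genes lay above zero together by small amounts. Positive differences were seen in 57 of 65 oxidative phosphorylation genes, 44 of 52 cytosolic ribosomal protein genes and 17 of 18 mitochondrial ribosomal protein genes. Over all features 47.3% were positive. The medians were 0.14, 0.13 and 0.26, and 0 of these genes were called in limma, with 12, 7 and 4 higher at an unadjusted p below 0.05. Of all features 5.98% were higher at that threshold. In the same order, the median correlations of their members with component 1 were -0.74, -0.64 and -0.85. The XY males lay between 8.37 and 27.5 on component 1 and the XX females between -71.3 and 24.7. The part of this component in the differences was not tested. Mrps15, of the mitochondrial small ribosomal subunit, differed by 0.78 (SE 0.25) and Sdhd, of succinate dehydrogenase, by 0.88 (SE 0.32). XX female 7 had the highest summed linear level of the mitochondrial ribosomal genes, at 85378 where the other 12 animals lay between 49591 and 66347. Without it their median was 0.17, and in batch 2 without it 0.10 with 14 of 18 positive, where 49.7% of all features were. It also had the highest summed oxidative phosphorylation level, 929883, the next animal being at 869340. In batch 2 without it 45 of 65 of these genes were positive with a median of 0.04, and 47 of 52 cytosolic ribosomal genes with a median of 0.10. The part of that array's quality in these levels was not tested. Heat shock genes were positive in 3 of 11, with a median of -0.04 (-0.02 without XX female 7) and 0 calls in limma. Of these 1 was higher at an unadjusted p below 0.05, Hspe1, which differed by 0.98 (SE 0.33, limma adjusted p = 0.373). The list of eIF2 partners, which holds the already called Eif2s3x itself, was positive in 7 of 13, with a median of 0.04 (0.08 in batch 2). Eif2s3x was its only call and its only gene at an unadjusted p below 0.05. Chromatin regulators related to sex chromosome genes, with Kdm6a among them, were positive in 7 of 18, with a median of -0.02 (0.06 in batch 2). At an unadjusted p below 0.05, 2 of them were higher, Kdm6a and Eed, and 0 were called in limma.

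**Figure D4:**
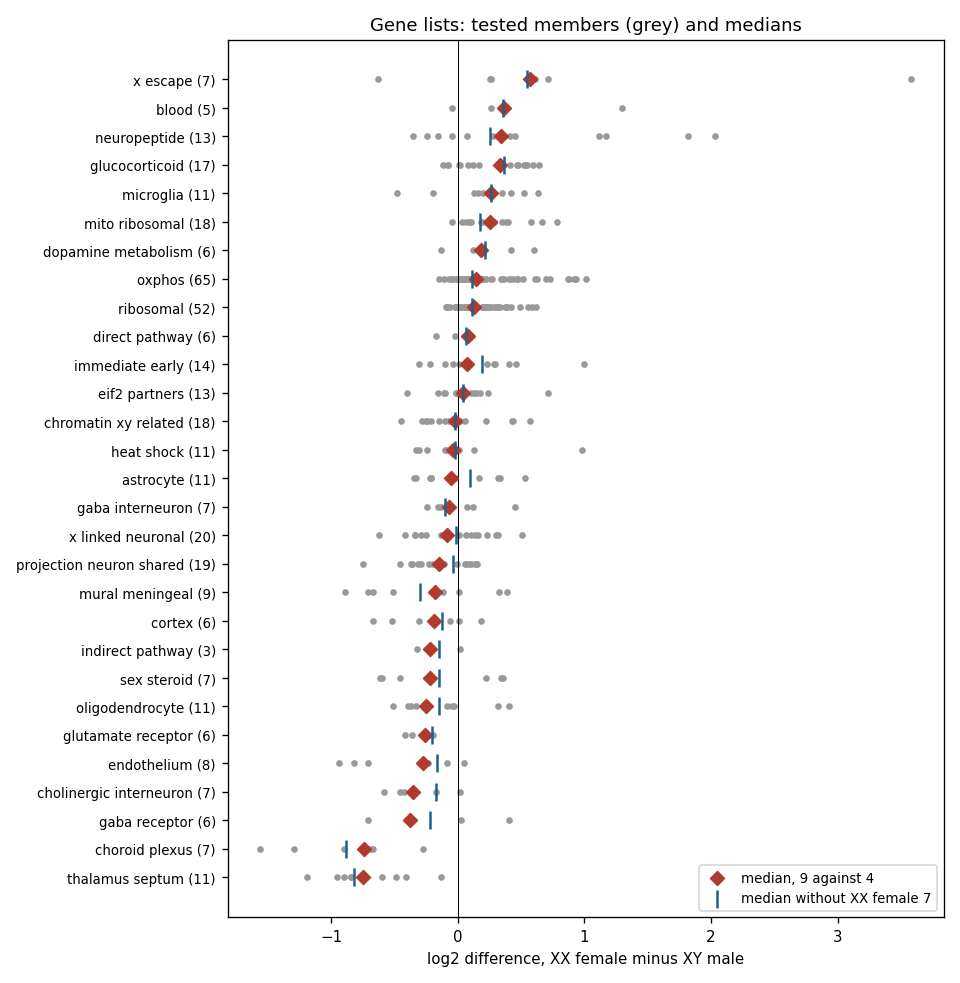
Differences (log2, XX female minus XY male, horizontal axis) of the tested genes of each list with at least 3 such genes, as grey points. Red diamonds give the list median with 9 against 4 animals and blue ticks the median without XX female 7, and the number tested stands in brackets. The escape list, which counts Xist, has the highest median (0.57), and the choroid plexus and thalamus lists have the lowest (-0.74 and -0.75).

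Markers of the thalamus and septum and of the choroid plexus, tissue next to the striatum, lay below zero in XX females. Cortical genes, also from tissue next to it, were mixed in sign and are given further below. The 11 tested thalamus and septum markers and the 7 tested choroid plexus markers had negative differences, with medians of -0.75 and -0.74, and 0 of them were called in limma (1 choroid plexus gene lower at an unadjusted p below 0.05). In batch 2 the medians were -1.07 and -1.23. Single XY males moved them: without XY male 12 they were -0.45 and -0.49, and without XY male 9 the choroid plexus median was -1.42. Tcf7l2, a transcription factor of the thalamus, differed by -0.85 (SE 0.48), and Sostdc1, a secreted protein of the choroid plexus, by -1.56 (SE 0.82). The same markers lay below zero between the 2 batches of XX females as well: 0 of 11 and 0 of 7 were positive in batch 2 minus batch 1, against 49.1% of all features, with medians of -0.83 and -0.88. The defining markers were not near background. Ttr, the transthyretin gene of the choroid plexus, was at 14.7, 12.9, 14.9, 12.6, 14.1, 12.6, 14.6, 12.3 and 12.4 in XX females 1 to 9 and at 12.2, 14.9, 14.9 and 14.9 in XY males. Both groups thus held animals with high and with low Ttr. The summed linear choroid plexus level ranged from 7115 to 37458 in XX females and from 6618 to 39015 in XY males, and that of thalamus and septum from 4512 to 35073 and from 11908 to 29978. How much adjacent tissue contributes to any other difference was not tested. In bulk tissue, fewer cells of a type and less RNA per cell cannot be told apart.

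Other cell type markers and neuropeptides had medians nearer to zero and 0 calls in limma, with 4 genes higher and 3 lower at an unadjusted p below 0.05. Oligodendrocyte genes were positive in 2 of 11 with a median of -0.25 (-0.37 in batch 2 and -0.15 without XX female 7). Astrocyte genes were positive in 4 of 11 with a median of -0.06 (-0.09 in batch 2 and 0.09 without XX female 7), and microglial genes in 9 of 11 with a median of 0.27. These lists also moved between the 2 batches of XX females. In batch 2 minus batch 1, 0 of 11 oligodendrocyte, 0 of 11 astrocyte and 7 of 11 microglial genes were positive, against 49.1% of all features. The medians were -0.49, -0.15 and 0.19. Tyrobp, a microglial signalling adaptor, differed by 0.52 (SE 0.24). Endothelial genes were positive in 1 of 8 with a median of -0.28 (-0.16 without XX female 7, and 3 of 8 positive in batch 2 without it). Mural and meningeal genes were positive in 3 of 9 with a median of -0.18 (-0.35 in batch 2 and -0.30 without XX female 7), and cortical genes in 2 of 6 with a median of -0.18 (-0.05 in batch 2 and -0.13 without XX female 7). Blood genes were positive in 4 of 5, with a median of 0.36. The beta globin gene Hbb-bt was at 9.03 ± 0.75 (SD, n = 9) in XX females and 7.74 ± 0.82 (SD, n = 4) in XY males, a difference of 1.30 (SE 0.41, limma adjusted p = 0.373). Neuropeptide genes were positive in 9 of 13, with a median of 0.34, and in 7 of 13 with a median of 0.02 in batch 2 without XX female 7. Among them Hcrt, the hypothalamic peptide orexin, ranged from 5.66 to 11.0 in XX females and from 4.90 to 7.85 in XY males, and Nts, neurotensin, differed by 1.17 (SE 0.48, limma adjusted p = 0.373).

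The differences were set against those between 8 XX males and 4 XY males with letter a, all of them different animals with Sry in the code. This asks where XX and XY animals differ when both are labelled male, and the 25 arrays were normalized and fitted together. Xist differed by 3.25 in letter b and by 3.39 in letter a, and Eif2s3x by 0.72 and 0.66 (SE 0.11 for each). The differences between the 2 comparisons were -0.14 (SE 0.50) for Xist and 0.06 (SE 0.16) for Eif2s3x, with adjusted p of 0.857 and 0.815 in limma. Kdm6a differed by 0.58 in letter b and 0.53 in letter a. Pbdc1 differed by 0.61 and 0.14, with an adjusted p of 0.146 for that contrast.

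Between the 2 comparisons 3 of 9853 features differed (0.0304%), with 2740 (27.8%) at an unadjusted p below 0.05. ILMN_1241001 was not above background in any XX animal of either comparison, so its contrast of 1.06 (SE 0.15, limma adjusted p = 0.00311) is a difference in the level of the XY males, at 6.86 ± 0.15 in letter b and 7.93 ± 0.33 in letter a (SD, n = 4 each). ILMN_2993661 differed by -1.36 in letter b and 0.43 in letter a, a contrast of -1.78 (SE 0.31, limma adjusted p = 0.0324). The XX females were at background for this probe (detected in 0 of 9), as were 3 of the 4 letter a XY males, so these sizes are not exact. Thsd4, a secreted protein of the extracellular matrix, differed by -0.73 in letter b and 1.15 in letter a, a contrast of -1.88 (SE 0.34, limma adjusted p = 0.0349). It was detected in 0 of 4 letter a XY males, so the letter a difference and the contrast are not exact sizes either. Noct differed by 2.62 in letter b and 0.95 in letter a, a contrast of 1.67 (SE 0.73, limma adjusted p = 0.155). The letter, the gonads of the XX animals and the labelled batch of the XY males change together in this contrast and cannot be told apart.

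**Figure D5:**
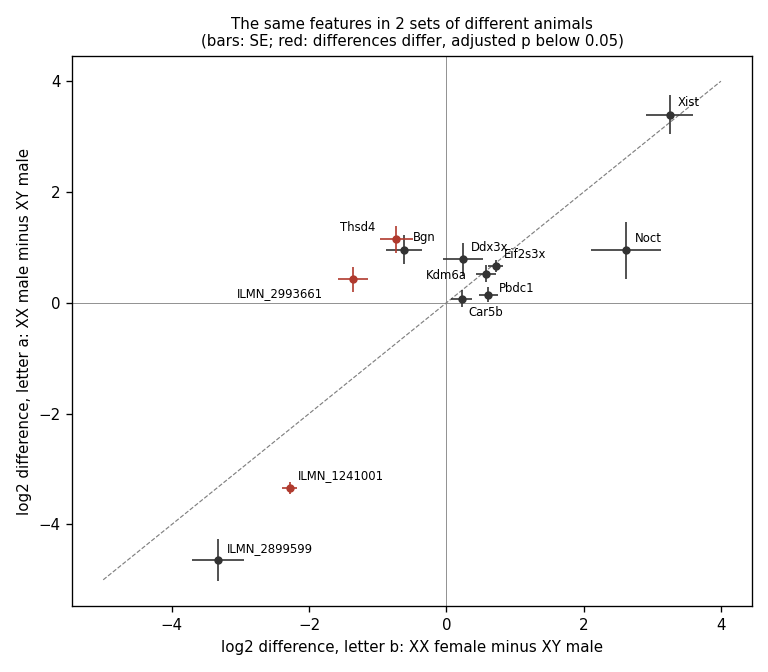
Differences (log2) of 12 features in letter b (XX female minus XY male, horizontal) and letter a (XX male minus XY male, vertical), with SE bars and the line of equal differences. Xist, Eif2s3x and Kdm6a lie on or near the line, and the 3 features in red differed between the comparisons at a limma adjusted p below 0.05.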

How the data were processed

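Per the file headers, the authors deposited linear bead signal intensity and a detection p-value for each probe and array before any normalization. Bead standard errors and bead numbers, scores deposited by the authors per the file headers, were not used. Signal was read for 37 of the 38 animals, and 0 columns went unused for want of a sample. The authors also deposited log2 values for 12128 probes. Limma is named in the submitters' processing notes, with no step described; how those values were scaled or centred is unknown.

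The 13 arrays were background-corrected on negative-control levels inferred from detection p-values, quantile-normalized and log2-transformed after adding an offset of 16 (neqc, limma 3.58.1, R 4.3.3). The offset understates differences of dim probes. Probes detected at p below 0.01 in at least 4 of the 13 arrays were kept (12404). Platform annotation gave 1 symbol for 11458 probes, several for 0 and none for 14239. Of the named, 11454 matched RefSeq genes (GRCm38.p6) by Entrez identifier. The probe with the highest mean stood for each named gene, giving 8387 genes and 1146 unnamed probes. Tests used lmFit and eBayes with Benjamini-Hochberg adjustment over all features, an approach tested on simulated data. The labels call the animals biological replicates. Where replicate numbers recur between groups they name different animals. The number of arrays, and signal relative to background, limit the precision.

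Named in the text were the calls, all tested escape, pseudoautosomal and Y-linked genes, up to 2 genes of each other list with the smallest unadjusted p, and Drd1, Drd2 and Esr1. An item of this rule is not reported here. ILMN_3123341, Thsd4, Nr1d2 and Ttr were added after their values were seen. Members and lists were chosen with earlier results of these data known. Alternatives were normalization over all arrays, no background correction, median scaling, other filters, every probe, batch as a covariate, array weights, a fit over 4 groups, the deposited log2 values, a replicate block and leaving out each animal.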

Additional observations from a re-analysis of the deposited data

Results flagged for a closer look

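Single animals stood far from the rest of their group in 8 of 140 groups of values examined, and chance gives such a gap in about 1 of 20. The count is near that share, and the animals are listed as a description only. Several of the gaps were those of XX female 7, so the groups are not independent of each other. XX female 7 was the lowest on component 1, at -71.3. It was also the lowest XX female for Syp (13.2) and for Gabrb1 (7.04), and the highest for ILMN_1241001 (4.83), where all XX females were at background. XX female 1 was the lowest for the first Noct probe, at 7.32 where the next was at 9.89. XX female 9 was the highest for Kdm6a (10.7) and for Drd1 (12.97). XY male 9 was the lowest XY male for Sostdc1, at 6.61 where the next was at 9.47.

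The difference between XX and XY animals was itself different in letter b and letter a for 3 features (limma, adjusted p below 0.05). The letter b difference minus the letter a difference was 1.06 for ILMN_1241001, -1.78 for ILMN_2993661 and -1.88 for Thsd4. Each probe was not above background in at least 1 of the 4 groups, so these are fitted values and not exact sizes.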

How the results depend on the processing

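The count of 5 calls stayed between 4 and 6 under normalization over 37 arrays, no background correction, median scaling, no detection filter, every probe as a feature, batch as a covariate and the fit over 4 groups, and over the 13 fits that left out an animal. It was 1 when detection in all 13 arrays was required, which removes features dark in 1 group. Eif2s3x was still tested there and had an adjusted p of 0.0597. It was 53 (20 higher, 33 lower) with array weights, where XX female 7 had a weight of 0.169 and the XY males had 1.26 to 2.16. It was 0 with the authors' deposited log2 values (limma, 1253 at an unadjusted p below 0.05), where 2 of the 5 called features could be tested. There Eif2s3x differed by 0.79 (adjusted p = 0.173). In batch 2 alone the 4 calls became 1 with no detection filter and 0 with the deposited log2 values (1138 at an unadjusted p below 0.05), and leaving out an animal gave 1 to 6. The 3 features that differed between letters became 1 without background correction and 1 without the filter. Eif2s3x was called in 6 of 11 alternatives other than leaving out an animal (adjusted p up to 0.422), Xist and ILMN_1241001 in 9 of the 9 that tested them. With batch as a covariate Xist kept an adjusted p of 0.0191 and Eif2s3x had 0.15. Code numbers 1, 2, 5 and 8 recur in both groups. Same-numbered animals correlated at -0.23 to 0.23, and 3 of the 4 pairs cross batches. The same-numbered animal was the best match for numbers 2 and 5 and not for 1 and 8. These few values cannot decide whether a shared number marks a pairing. A replicate block by number gave 5 calls (3 higher, 2 lower). The causes of these shifts were not tested beyond what is stated.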

Other observations

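Some features fell into 2 separate levels among the 13 animals, with a gap of at least 1.5 log2 units and at least 2 animals at each level. There were 39 of them among the 9533 features. The levels matched XX female and XY male in 3, which were Xist, ILMN_1241001 and ILMN_2899599. In 29 both groups held animals at both levels. The widest gap was in Csrp1, a LIM domain protein gene on chromosome 1, with no value between 6.34 and 12.0 and 5 of 9 XX females and 1 of 4 XY males above it. Zfp365, a zinc finger gene on chromosome 10, left 8.71 to 12.0 empty, with 7 XX females and 2 XY males above. The proteasome subunit gene Psmd8 left 7.89 to 11.0 empty, with 6 XX females and 3 XY males above. The class I histocompatibility genes H2-T23, H2-T10 and H2-Bl, all on chromosome 17, were also among the 39. The choroid plexus genes Sostdc1 and Kcne2 were high in the same number of animals, 3 XX females and 3 XY males. These features were picked for the gap and were not tested.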
